A study of Oryza sativa with 8 samples.

Results

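A set of 97 rice genes, on 98 probes, changed clearly under abscisic acid (ABA) in scutellum callus while their mean under gibberellin (GA) stayed near 0. They were taken from 17769 probes with 1 gene each, which stand for 15641 genes. The members were chosen by their ratios on all 8 arrays. A probe was a member if its mean log2 ratio of treated over untreated callus was at least 0.8 or at most −0.8 over the 4 ABA arrays (1.74-fold), with the same sign on all 4. Its mean over the 4 GA arrays also had to lie between −0.3 and 0.3 (1.23-fold at most). By this rule 50 probes for 49 genes were raised and 48 probes for 48 genes were lowered. The phosphatases named PP2C, the beta-expansin EXPB3, the auxin carrier OSPIN10a and the defence protein PBZ1 were left out by name, which removed 6 probes that meet the limits.

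The callus came from the scutellum of the japonica variety Nipponbare and was grown for 30 d on medium with 10 µM of the synthetic auxin 2,4-D. It was then moved to medium with 50 µM of ABA or of GA for 3 d, and its RNA was set against RNA of untreated callus on a 2-colour array of rice oligonucleotides. Each hormone has 4 arrays, 2 with the treated sample in the green dye Cy3 (ABA arrays 24 and 20, GA arrays 04 and 05) and 2 with it in the red dye Cy5 (ABA arrays 19 and 23, GA arrays 07 and 08). Whether separate cultures were used, or 1 untreated sample for several arrays, is not stated in the labels, so the SDs and p-values below cover differences between arrays only, and these may be technical.

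ABA is the plant hormone of drought, seed maturation and dormancy. It binds soluble receptors, which then hold back the PP2C phosphatases, and this frees SnRK2 kinases to act on transcription factors of the bZIP family. GA acts through another receptor and the removal of DELLA repressors, and the hormones are known to oppose each other in seeds.

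Because the rule used both hormones' values, the members' ratios are a description and carry no test. "Raised" and "lowered" name the side of the rule on which a gene lies. Values are log2 ratios, with the SD over n = 4 arrays, in the order of arrays 24, 20, 19 and 23 for ABA and 04, 05, 07 and 08 for GA. As deposited, pairs of ABA arrays with opposite dyes had correlations between −0.605 and −0.505 across probes, and pairs of GA arrays between −0.815 and −0.700. The labels name treated over untreated, but the table was therefore taken as red over green dye, and the sign was turned where the treated sample was in Cy3. These correlations show that opposite dyes run opposite ways, not which way. Which way is taken from the labelled dyes and from reading the ratios as red over green. Genes known to be induced by ABA, such as EM and RAB16B, then lie above 0 under ABA, but the choice was made with their values known, so the ABA direction is likely and not certain. No such check was made for GA, whose direction is as labelled only. As labelled, EM and RAB16B lay at −2.83 and −1.51 under GA, and the 4 alpha-amylase probes ran from −1.20 to 0.17. Since the GA window is symmetric, turning the GA arrays leaves the same 50 and 48 members.

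Raised members had a median ABA mean of 0.98, from 0.80 to 1.77, and 22 of the 50 were at least 2-fold up. Lowered members had a median of −0.999, from −1.69 to −0.81, and 24 of the 48 were at least 2-fold down. Among all probes with 4 positive ABA arrays and a mean of at least 0.8, 54 of 195 (27.7 percent, the genes left out by name included) had a GA mean inside the window, 123 lay below it and 18 above. On the falling side 50 of 177 (28.2 percent) lay inside, 105 above and 22 below. For comparison, 80.5 percent of all 17769 probes had a GA mean inside the window. The highest ABA mean outside the window was 3.97. Rising probes had a median of 1.49 outside and 0.98 inside, while falling probes had nearly equal medians, −1.08 outside and −1.005 inside.

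**Figure D1:**
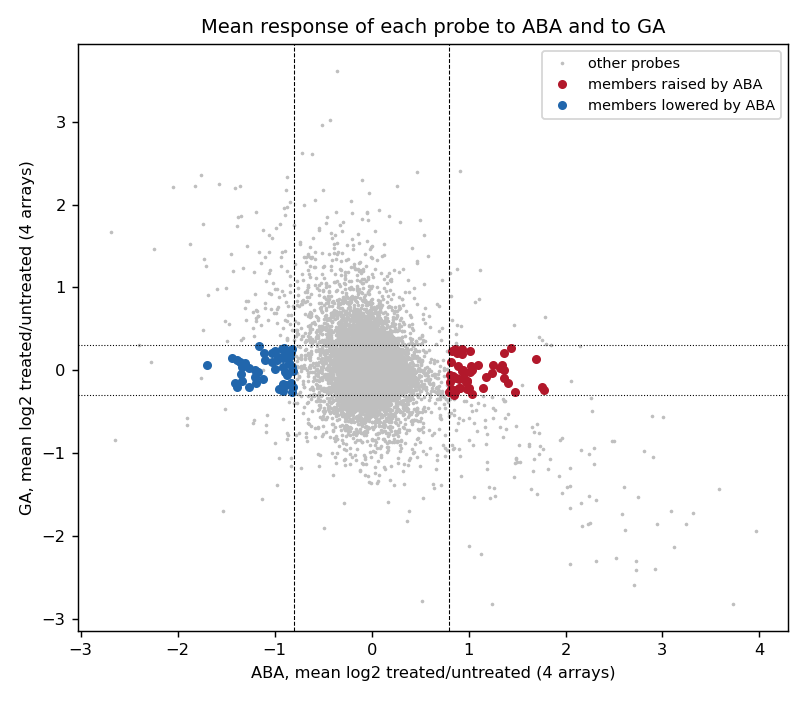
Each point is a probe with 1 gene, placed by its mean log2 ratio of treated over untreated under ABA (x axis) and under GA (y axis), each over 4 arrays; dashed lines mark the ABA limits of −0.8 and 0.8 and dotted lines the GA limits of −0.3 and 0.3. The 50 raised members (red) reach 1.77 and the 48 lowered members (blue) reach −1.69, while the highest ABA means, up to 3.97, belong to probes below the GA window.

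The limits cut through a continuous range. On the raised side the members nearest the ABA limit had ABA means of 0.80, 0.81 and 0.81, and the probes just short of it had 0.78 each. On the lowered side the values were −0.81, −0.81 and −0.82 inside and −0.80, −0.78 and −0.77 outside. At the GA limit, raised probes stood at −0.30, −0.29 and 0.27 inside and at 0.30, −0.31 and −0.32 outside. Lowered probes stood at 0.29, 0.27 and −0.26 inside and at 0.30, 0.36 and 0.36 outside. Among the raised genes just short of the ABA limit were the genes AP22 (0.78) and R40C1 (0.78).

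The set is described here by its rule, as genes with a clear ABA ratio and a small mean GA ratio, and not as genes without a GA response. Single GA arrays went further from 0 than the means. All 4 GA values lay within the window for 27 of 50 raised and 28 of 48 lowered members. Single values ran from −0.86 to 0.70 among raised members and from −0.81 to 0.47 among lowered ones. All 4 GA arrays lay above 0 in 8 and below 0 in 18 raised members, and above 0 in 16 and below 0 in 10 lowered ones. The GA mean was below 0 for 31 of 50 raised members and above 0 for 29 of 48 lowered ones. Of all probes in the GA window, 53.8 percent had a mean below 0 and 46.2 percent above. No such share over all probes was taken for the counts on all 4 GA arrays, so those counts describe the members only.

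**Figure D2:**
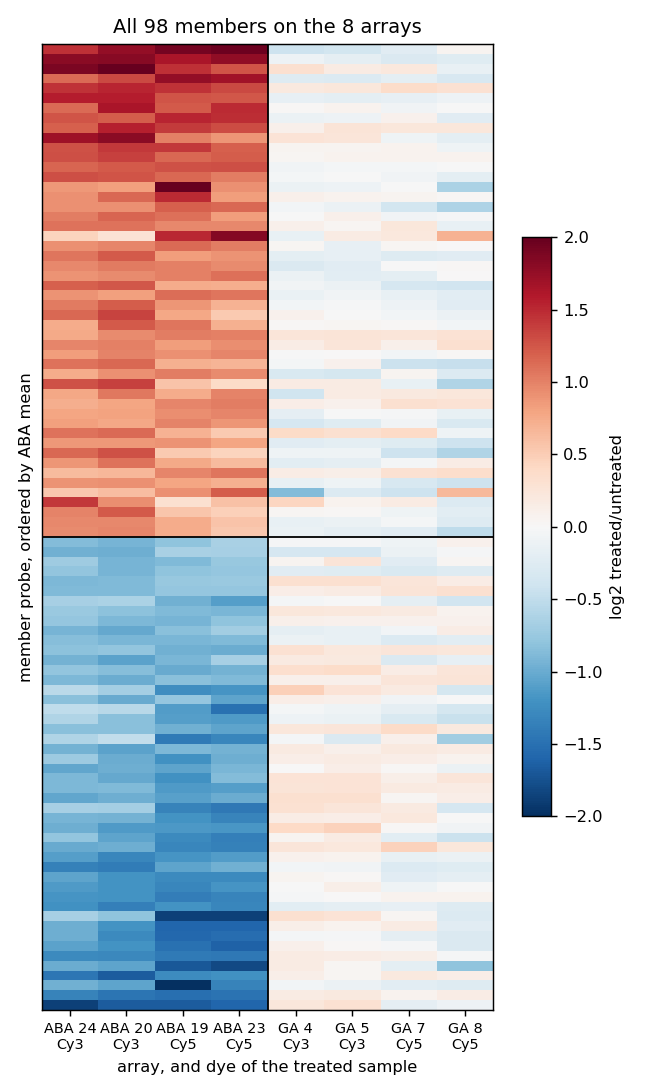
Each row is 1 of the 98 member probes, ordered by ABA mean, and each column is an array, with the dye of the treated sample below it; the colour gives the log2 ratio of treated over untreated and is full at −2 and 2. The 4 ABA columns keep 1 sign in each row, while the GA columns are pale, with single stronger cells such as −0.86 for IMCEL2 on array 04 and −0.81 for RASI on array 08.

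Of the 97 genes, 22 carry a gene name in the annotation and 75 only a locus number. The locus-number genes include the strongest members. LOC4344574 measured 1.47, 1.76, 1.91 and 1.96 under ABA (1.77 ± 0.22, 3.42-fold) with a GA mean of −0.24. LOC4340259 was nearly as high, at 1.76 ± 0.09 with a GA mean of −0.20. On the lowered side LOC4333028 measured −1.87, −1.66, −1.66 and −1.59 (−1.69 ± 0.12, 3.24-fold) with a GA mean of 0.06. LOC4326487 followed at −1.44 ± 0.07 with a GA mean of 0.14. In these 4 genes no ABA array came near the GA arrays.

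Among the named raised genes, 3 belong to the handling of sucrose and its oligosaccharides. RFS, a name used for raffinose synthase, which makes the protective sugar raffinose from sucrose, measured 1.27, 1.42, 1.41 and 1.20 under ABA. Under GA the same probe gave 0.05, 0.05, 0.06 and −0.09. Its ABA mean was 1.33 ± 0.11 (2.51-fold), and the lowest ABA array lay far above the highest GA array. SUS3, a sucrose synthase, which splits sucrose for use in metabolism and starch, measured 0.75, 1.23, 1.06 and 0.72 under ABA and 0.03, 0.03, 0.02 and −0.06 under GA. Its ABA mean was 0.94 ± 0.25, with arrays of either orientation at both the high and the low end. SUS4 was a member on both of its probes. The first gave 1.09, 1.14, 0.72 and 0.68 (0.91 ± 0.24) and the second 1.15, 1.27, 0.53 and 0.45 (0.85 ± 0.42). Both were higher on the arrays with the treated sample in Cy3. Their GA means were −0.21 and −0.30, with arrays 07 and 08 lowest on both probes, from −0.61 to −0.42.

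Genes outside the set were tested with limma over 17782 probes, at an adjusted p under 0.05. Under ABA it called 18.0 percent of all probes higher and 23.7 percent lower (41.8 percent in either direction). Under GA it called 26.2 percent higher and 22.8 percent lower (49.0 percent in either direction), and the counts of rising and falling relatives below are to be read against these shares. The other sucrose synthase probes did not follow SUS3 and SUS4. Of 6 such probes for 4 genes none rose and 3 fell under ABA, and 5 rose as labelled under GA. SUS2 (RSS1) fell on both of its probes under ABA, at −0.74 ± 0.23 (adjusted p = 3.05e-07 by limma) and −0.51 ± 0.09 (adjusted p = 7.60e-07). Under GA the same probes rose by 0.78 ± 0.24 and 0.70 ± 0.08 (adjusted p = 1.40e-07 and 6.03e-08). SUS1 (RSs2) fell by 0.23 ± 0.11 under ABA (adjusted p = 7.06e-04), while GA gave a rise of 0.66 ± 0.08 (adjusted p = 4.07e-07). SUS5 and both probes of SUS6 lay between −0.07 and 0.03 under ABA. These families were matched on gene names after the members' values had been seen.

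A further 3 raised genes have roles in calcium signalling, in which short rises of calcium are read by calmodulin-like proteins and ended by pumps. CML16, a calmodulin-like calcium sensor, measured 1.29, 1.37, 1.15 and 1.21 under ABA and 0.03, 0.07, 0.06 and 0.07 under GA. Its ABA mean of 1.25 ± 0.09 (2.38-fold) had an SD below the median of 0.17 over raised members. CML15, of the same family, measured 0.89, 0.82, 1.12 and 1.08 (0.98 ± 0.14) under ABA and was below 0 on all 4 GA arrays, with a mean of −0.14 ± 0.06. The remaining 17 CML probes, 1 per gene, ran from −0.57 to 0.72 under ABA with a median of 0.05. Of these 3 rose, led by CML1 (0.72 ± 0.12, adjusted p = 5.52e-07 by limma), and 3 fell, among them CML18 (−0.57 ± 0.05, adjusted p = 1.33e-06). CML1 also rose under GA (0.51 ± 0.02, adjusted p = 3.09e-06). ACA5, a calcium pump of the autoinhibited class, gave 1.27 and 1.36 with the treated sample in Cy3 but 0.57 and 0.39 with it in Cy5. Its ABA mean of 0.90 ± 0.49 is past the limit only through the Cy3 arrays, and its GA values of 0.17, 0.16, −0.15 and −0.60 show the same order of the dyes. The other 5 ACA probes lay between −0.27 and 0.16 under ABA.

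Raised genes also included enzymes and carriers of mineral storage. IPK1, the inositol phosphate kinase that completes phytate, the phosphate store of seeds, measured 0.87, 0.87, 0.90 and 0.78 under ABA. The mean was 0.86 ± 0.05 (1.81-fold), and the GA values were all below 0, at −0.23, −0.20, −0.24 and −0.42. VIT1, which moves iron and zinc into the vacuole, measured 0.72, 0.79, 0.97 and 1.02 under ABA (0.88 ± 0.14). Its GA values were all above 0, from 0.08 to 0.32, with a mean of 0.21. The second VIT gene on the array, VIT1.2, measured 0.01, −0.04, 0.41 and 0.21 under ABA. Its mean of 0.15 ± 0.21 (adjusted p = 0.0129 by limma) came from the arrays with the treated sample in Cy5.

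Genes of defence were represented by Cht1 and CPS2. Cht1, a chitinase that cuts the chitin of fungal walls, measured 1.69, 1.80, 1.01 and 0.89 (1.35 ± 0.47, 2.55-fold) under ABA, higher with the treated sample in Cy3. Its GA values were 0.27, 0.24, −0.08 and −0.20, again higher in Cy3, for a mean of 0.06. Of the 9 other probes with a gene symbol of the Cht or Chia type 3 rose and 1 fell under ABA, within −0.38 to 0.79. The highest was chia4a (0.79 ± 0.05, adjusted p = 1.42e-07 by limma), which fell as labelled under GA (−0.51 ± 0.08, adjusted p = 1.43e-06). CPS2, a copalyl diphosphate synthase that opens the path to the phytocassane phytoalexins, measured 1.19, 1.56, 1.40 and 1.30 (1.36 ± 0.16, 2.57-fold) under ABA and 0.10, 0.26, 0.22 and 0.23 under GA. Its relatives were far lower under ABA: CPS4 rose by 0.17 ± 0.06 (adjusted p = 0.00959 by limma), and CPS1, of GA synthesis, was at 0.11 ± 0.12 (adjusted p = 0.0589).

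Of the raised genes of the wall and surface, OsCASPL2B1 had the highest ABA mean of all named members. It encodes a CASP-like membrane protein, of the wider family of the Casparian strip proteins, and measured 1.88, 2.18, 1.47 and 1.25 under ABA (1.70 ± 0.42, 3.24-fold). Its GA values were 0.32, 0.17, 0.21 and −0.16. A second probe of the gene gave only 0.21 ± 0.03 under ABA. The other CASP-like probes, 21 with this one, ran from −0.89 to 0.38, with 6 rising and 3 falling. PMEI8, a pectin methylesterase inhibitor, which keeps pectin in its methylated form, measured 0.92, 0.98, 1.13 and 1.03 under ABA (1.02 ± 0.09) and had a GA mean of −0.02. PMEI28 was at −0.07 ± 0.25 under ABA (adjusted p = 0.232 by limma). LTP2-B, a lipid transfer protein, measured 0.74, 0.91, 1.02 and 0.94 (0.90 ± 0.11), with a GA mean of −0.22 and a second probe at 0.26 ± 0.17 under ABA.

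The last named raised genes are known here by name only. OrysaZ1 measured 1.16, 1.23, 1.27 and 1.29 (1.24 ± 0.06, 2.36-fold) under ABA and between −0.07 and −0.01 under GA. All 4 arrays of either hormone lay close together. IMCEL2 was the opposite case, with 0.53, 0.61, 0.92 and 1.21 (0.82 ± 0.31) under ABA. Its GA mean of −0.23 ± 0.63 came from values of −0.86, −0.28, −0.42 and 0.65, which differ in sign. Its second probe gave 0.71 ± 0.11 under ABA, just short of the limit, and −0.26 ± 0.06 under GA.

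**Figure D3:**
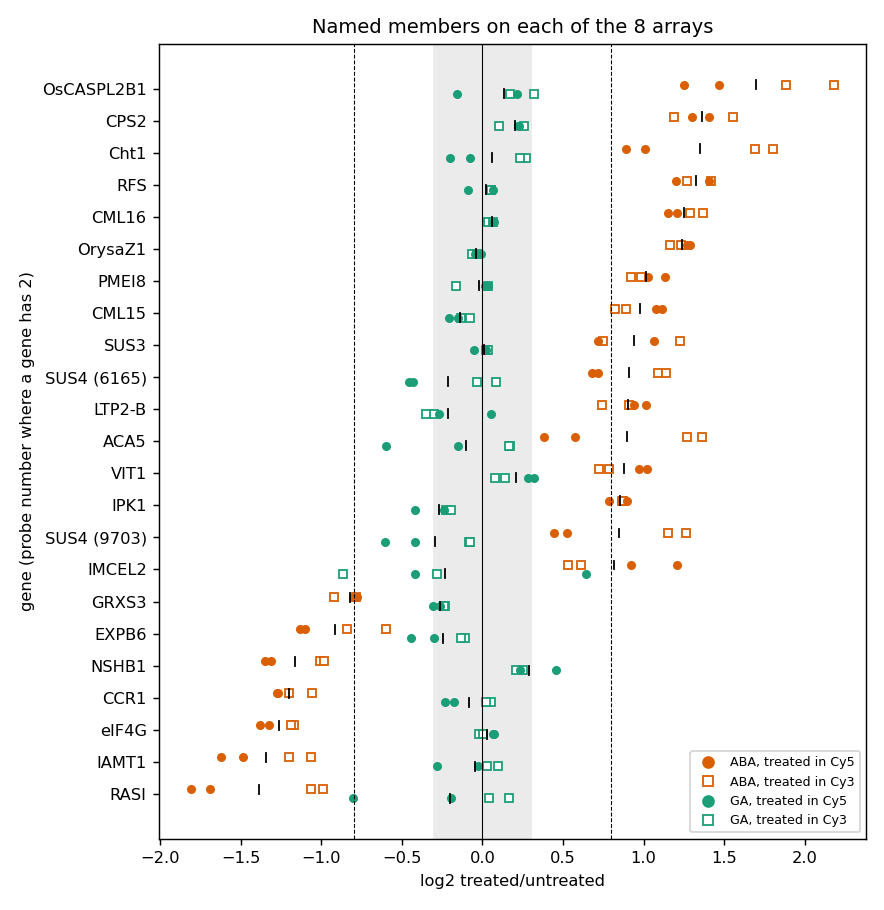
The log2 ratio of treated over untreated (x axis) is shown for the 23 probes of the 22 named member genes on each array; orange marks are ABA and green marks GA arrays, filled circles have the treated sample in Cy5 and open squares in Cy3, and black bars are means over 4 arrays. Dashed lines are the ABA limits and the grey band the GA window. The ABA marks of OrysaZ1, CML16 and IPK1 lie close together, while those of ACA5, Cht1 and RASI split by dye.

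Lowered named genes were fewer, 7 in all. RASI, an inhibitor of alpha-amylase and of the protease subtilisin, measured −0.99, −1.06, −1.69 and −1.81 under ABA (−1.39 ± 0.42, 2.61-fold). Its GA values of 0.16, 0.04, −0.20 and −0.81 spread over more than the whole GA window. IAMT1, a methyltransferase that turns the auxin indole-3-acetic acid into its methyl ester, measured −1.07, −1.20, −1.49 and −1.62 under ABA (−1.34 ± 0.26, 2.54-fold). Its GA mean was −0.05 ± 0.17. In both genes the ratios were larger in size with the treated sample in Cy5.

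CCR1 and EXPB6 have roles in the cell wall, as do raised members above. CCR1, a cinnamoyl-CoA reductase of the lignin pathway, measured −1.06, −1.20, −1.27 and −1.27 under ABA (−1.20 ± 0.10, 2.30-fold) and 0.05, 0.02, −0.23 and −0.18 under GA. EXPB6, a beta-expansin that loosens walls, measured −0.60, −0.84, −1.10 and −1.13 (−0.92 ± 0.25) under ABA, and its GA values were all below 0, from −0.44 to −0.11. EXPB6 passed the ABA limit on 3 of 4 arrays. Of the 10 other beta-expansin probes 4 fell under ABA and 2 rose. EXPB3, left out of the set by name, was lowest at −2.28 ± 0.27, and EXPB2 fell by 0.87 ± 0.14 (adjusted p = 6.97e-06 by limma). EXPB2 rose as labelled under GA (0.38 ± 0.19, adjusted p = 8.39e-04), which kept it outside the window. The highest ABA value in the family was 0.16 ± 0.07 for EXPB10.

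Redox and oxygen-related genes were NSHB1 and GRXS3. NSHB1 is a non-symbiotic haemoglobin, of a class known to remove nitric oxide when oxygen is low. It measured −1.01, −0.98, −1.31 and −1.35 under ABA (−1.16 ± 0.19, 2.24-fold). Under GA it gave 0.25, 0.21, 0.45 and 0.23, all above 0, and its mean of 0.29 lay close to the limit. GRXS3, a glutaredoxin, an enzyme that reduces protein disulphides with glutathione, measured −0.78, −0.92, −0.80 and −0.78 under ABA (−0.82 ± 0.07). It was below 0 on all GA arrays as well, at −0.26 ± 0.03. Of the 19 other glutaredoxin probes 4 rose and 6 fell under ABA, near the 18.0 and 23.7 percent of all probes. The lowest were the probes of GRXS2, at −0.84 ± 0.27 and −0.49 ± 0.18 (adjusted p = 1.21e-07 and 4.30e-06 by limma).

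The probe annotated to eIF4G, the scaffold of the complex that brings ribosomes to capped mRNA, measured −1.17, −1.19, −1.38 and −1.32 under ABA. That mean of −1.27 ± 0.10 stood beside GA values between −0.02 and 0.07. The gene's 3 other probes did not share the low ratio, with ABA means of −0.21 ± 0.26, 0.03 ± 0.11 and 0.11 ± 0.19. The low value is therefore given for the probe and not for the gene.

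Of the 97 genes 10 had further probes, 15 in all, that were not members. A further probe that met the rule was itself a member, as with SUS4, and is not among the 15. The counts below therefore describe these probes and cannot show how common disagreement between probes is. Under ABA 10 of the 15 had the member's sign and 5 the opposite one, and only 1 passed the ABA limit. For 12 of them the ratio was less than 0.4 in the member's direction, and 14 had a GA mean in the window. The further probes measured other cDNA accessions of the same gene, and whether they read other transcripts or other sequences was not tested.

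The dye orientation split many members. Both orientation means passed the ABA limit for 31 of 50 raised and 33 of 48 lowered members, while in the other 19 and 15 one of them did not. The ABA ratio was larger in size with the treated sample in Cy3 for 31 raised members and with it in Cy5 for 32 lowered ones. The gap between orientations exceeded 0.5 in 10 raised and 8 lowered members. It was widest in a raised member with a locus number only, at 0.44 and 0.29 on the Cy3 arrays and 1.51 and 1.83 on the Cy5 arrays. That gene's 3 other probes lay between −0.17 and 0.06. All 4 ABA arrays passed the limit on their own in 26 raised and 26 lowered members. No share over all probes was taken for these counts by dye, so they describe the members only. Whether the dyes split other probes to the same degree was not tested.

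**Figure D4:**
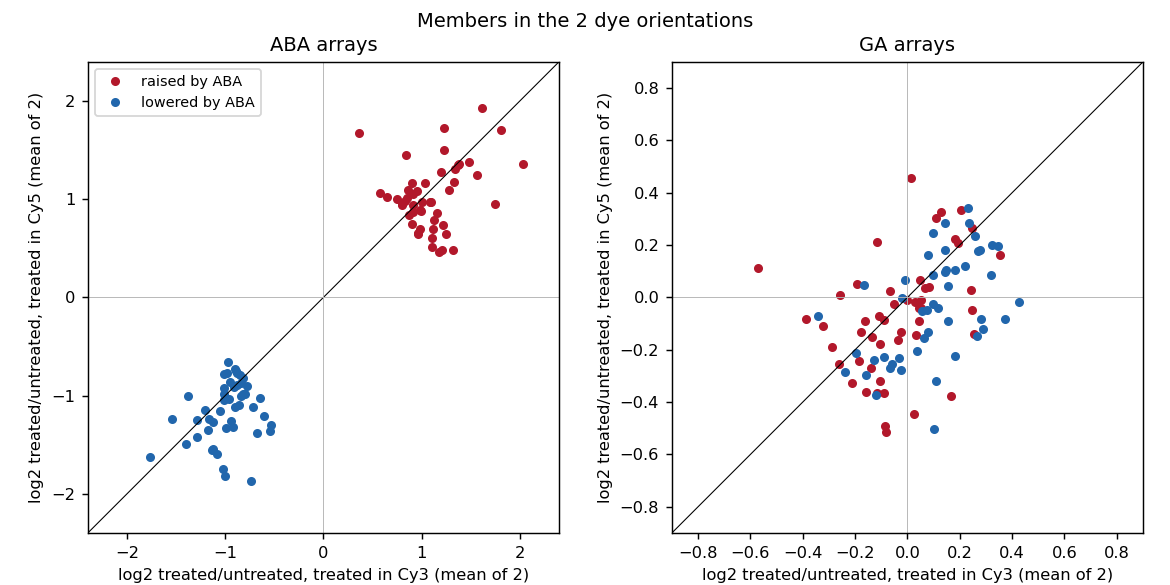
Each point is a member probe, placed by its mean log2 ratio of treated over untreated on the 2 arrays with the treated sample in Cy3 (x axis) and on the 2 with it in Cy5 (y axis), for ABA (left) and GA (right); the diagonal marks equal values. Under ABA 31 of 50 raised members (red) and 32 of 48 lowered members (blue) lie below the diagonal, and under GA the points gather around 0 without separating by colour.

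Some members lie close together in the genome, by the order of protein-coding genes in the RefSeq annotation of ASM3414082v1. The pairs given here, genes left out by name included, have at most 4 genes between them. Pairs further apart include raised with lowered members. How many such pairs as many other genes would give was not counted. A pair of locus-number genes on chromosome 1 are direct neighbours, both lowered, with ABA means of −1.10 and −1.34, although the second gene's further probes gave 0.13 and 0.05. A run of 3 other lowered genes on chromosome 1 (−0.82, −1.001 and −1.44) has 4 and 3 genes between them. EXPB6 is separated by 1 gene on chromosome 10 from EXPB3. IMCEL2, raised, is separated by 2 genes on chromosome 1 from OSPIN10a, which was lowered (−1.76 ± 0.18). On chromosome 12 a raised member (0.94) is separated by 2 genes from PBZ1 (2.15 ± 0.05). CPS2 has a raised neighbour (0.82) with 3 genes between them on chromosome 2. By chromosome, members made up from 0.353 percent of measured genes (chromosome 9) to 0.998 percent (23 of 2304 genes on chromosome 1), against 0.620 percent over all 12. Near-identical copies in such runs can share probe signal, which was not tested here.

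No member came from the lists of ABA pathway genes, which hold few probes beside the 98 members among 17769, and the PP2C genes were left out by name. Of 12 probes for ABA receptors and SnRK2 kinases none was a member, and 4 rose and 3 fell under ABA, with a median of 0.07, where 18.0 percent of all probes were called higher and 23.7 percent lower. REK (SAPK3), a kinase, rose by 0.64 ± 0.12 (adjusted p = 1.61e-06 by limma) with a GA mean of 0.09, and SAPK9 fell by 0.92 ± 0.10 (adjusted p = 4.35e-08) with a GA mean of 0.96. A second REK probe gave 0.08 ± 0.20. The receptor PYL11 fell on average by 0.71 ± 0.41 (adjusted p = 1.31e-05) with a GA mean of 0.05, and split by dye, at −0.41 and −0.31 in Cy3 and −1.06 and −1.06 in Cy5. In the list of ABA-response bZIP and B3 factors, 2 of 3 rose. The seed maturation factor VP1 rose by 0.18 ± 0.24 (adjusted p = 0.00281 by limma) with a GA mean of −0.86. ABF2 (BZIP23) rose by 0.09 ± 0.12 (adjusted p = 0.0384) with a GA mean of 0.04. Without the dye term neither passed, and leaving out any ABA array, or GA array 04 or 05, left 1 of them. The breakdown enzyme ABA8OX1 fell by 0.44 ± 0.40 (adjusted p = 6.87e-04) under ABA, but did not pass without the dye term. Its GA mean was 0.86.

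Of the 6 clade A PP2C phosphatases 5 rose under ABA, with a median over the 6 of 1.18 against 0.00 over all probes. Of these PP2C30 (2.05 ± 0.14, GA −0.13), OsPP2C08 (1.56 ± 0.23, GA −0.18) and PP2C51 (0.80 ± 0.09, GA −0.15) met the limits and were left out by name. PP2C68 rose by 1.73 ± 0.11 (adjusted p = 3.86e-09 by limma) and lay above the GA window at 0.40. Of 7 probes for dehydrins and other LEA proteins, made when seeds and tissues dry, 6 rose and 1 fell, and none was a member. RAB16D (0.55 ± 0.24, adjusted p = 1.31e-06) and RAB16C (0.70 ± 0.14, adjusted p = 1.42e-06) had GA means of −0.05 and −0.01 but stayed under the ABA limit. The strongest of the list, RAB16B (1.27 ± 0.22) and EM (1.25 ± 0.21), lay far below the GA window at −1.51 and −2.83.

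Ratios give no level, so the presence of callus or of other tissues could not be checked from these arrays, and fewer cells of a type cannot be told apart from less RNA per cell. Probes listed as markers of other tissues moved to some degree under ABA. The 5 photosynthesis probes ran from 0.12 to 0.48 (4 rose). An RBCS1 probe that rose measured 0.06, 0.0005, 1.07 and 0.72. The gene's other probe, which did not pass, measured 0.48, 0.34, 0.04 and −0.27. The 9 meristem probes ran from −0.62 to 0.32 (2 rose, 4 fell). The lowest, WOX10, did not pass and measured −0.17, −0.18, −0.08 and −2.05. Those that fell lay between −0.23 and −0.14 and included WOX8 probes at −0.14 and −0.23. The 4 alpha-amylase probes, listed here under aleurone by name, ran from −0.25 to 1.19 (2 rose, 1 fell). Whether they mark aleurone alone was not tested. AMY1.3, which fell on average, measured 0.50, 0.64, −1.11 and −1.03. AMY1.4, which rose on average, measured 0.59, 0.64, −0.20 and −0.14. Both changed sign with the dye, while AMY1.2 rose on all 4 arrays. The 4 probes matched as storage tissue, 1 of them MADS3 through a shared synonym, lay between 0.02 and 0.09 and none passed. None of these markers was a member, and their part in the members' ratios was not tested. The ABA and GA arrays also carry array numbers in separate ranges, so a batch of arrays and the hormone cannot be told apart.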

How the data were processed

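The deposited values are log ratios, here assumed to be log10 since no source used here states the base, and were normalized with LOWESS by the authors per the labels. Red over green on every array was inferred from the correlations between arrays. Ratios were multiplied by 3.32 to give log2, the sign was turned on arrays with the treated sample in Cy3, and exact zeros (1 to 6 per array on probes with a listed gene) were treated as missing. Of 22575 features 17788 are listed with a gene and 17769 with 1 gene. Every member gene was found in the RefSeq annotation, which supplied names.

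limma 3.58.1 in R 4.3.3 fitted 1 mean per hormone and a common dye term to the 17782 probes with at least 3 values per hormone, with Benjamini-Hochberg adjustment over all of them. The fit was also run on simulated data with independent noise and 1 dye effect common to both hormones. That run cannot show whether the p-values hold where arrays share noise. Tests from the fit are given for genes outside the set and for background shares, and none for members. No count of molecules applies, so the number of arrays limits the precision. Array numbers differ between hormones, so nothing pairs the arrays.

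The members, lists, limits and alternatives were chosen with earlier results of these data known. Named genes are all members with a gene name, and from each ABA list the 2 with the smallest adjusted p. From the list of ABA synthesis and breakdown only ABA8OX1 was named. The other probe of that list, aba1 (0.06 under ABA), has TRAB1 as a synonym and was also counted among the bZIP and B3 factors. The largest members with a locus number only, the families of the named genes and further examples were chosen after their values were seen. Sequences and gene descriptions were not used here, so the planned motif and class counts were not made.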

Additional observations from a re-analysis of the deposited data

Results flagged for a closer look

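Among the 46 sets of 4 values of named members, 4 held an array far from the other 3, all of them GA arrays. The limit was that of Dixon's test at the 95 percent level, used here only to pick values for a closer look. No chance rate can be set against this count. The rule that chose the members used these values, and arrays of the same dye orientation are more alike than arrays of opposite orientation. For the same reasons, that all flags fell on GA arrays cannot be read as a difference between the hormones. RFS was lowest on GA array 08 (−0.087), SUS3 on GA array 08 (−0.055) and PMEI8 on GA array 05 (−0.17), where the other arrays lay a few hundredths above 0. NSHB1 was highest on GA array 07 (0.45, against 0.21 to 0.25).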

How the results depend on the processing

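The 50 raised and 48 lowered members stayed within 1.5 times these counts with zeros kept, median centring, quantile normalization (72 raised, 22 of them not in the set; 51 lowered), the median over arrays, GA turned and no gene left out. With every GA array held to the window 27 and 28 were left. Leaving out 1 array gave 43 to 53 raised and 46 to 58 lowered, and 34 and 36 members were kept in all 8 such settings. Alternatives chosen after seeing the data changed the set entirely: read as natural log, 5 and 3 probes met the rule, read as log2, 3 and 0, and with no sign turned 1 and 14, none of them members.

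With no sign turned the ABA mean changed sign for OsCASPL2B1 (−0.34), CPS2 (−0.011), Cht1 (−0.40), RFS (−0.020), CML16 (−0.073), SUS3 (−0.049), SUS4 (−0.21 and −0.36), ACA5 (−0.42), IPK1 (−0.015) and GRXS3 (0.032), because its arrays then cancel. Probes called for ABA were 7430 (4443 without the dye term, 5540 to 8858 without 1 array). Those called for GA were 8715 (6246 without the dye term, 7239 to 9662 without 1 array). No paired analysis was possible because the array numbers of the hormones do not overlap. Spot intensity and background are not analysed here, so dim probes cannot be told from bright ones.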

Other observations

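Of the 4787 features with no listed gene, 3 met the limits on the raised side, up to an ABA mean of 1.43, and 4 on the lowered side, down to −1.01. That is 0.146 percent of them, against 0.585 percent (104) of the probes with 1 gene.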
